A study of Homo sapiens with 15 samples.

Results

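The peaks of chromosome 16 were examined in 4 fixed blocks, assigned by peak start on hg19: 0 to 29 Mb (the distal block), 29 to 31.4 Mb (the dense block), 31.4 to 58.4 Mb (the sparse block) and 58.4 Mb to the end (the long-arm block). They comprised 766 of the 20388 peaks in the 3 deposited lists, with 85 of 2527 for wild-type MYC (WT-MYC), 27 of 690 for the WDR5-binding mutant (WBM-MYC) and 654 of 17171 for WDR5. The study used chromatin immunoprecipitation and sequencing in HEK293, a human embryonic kidney cell line. Retrovirally transduced cells made FLAG-tagged MYC, either WT-MYC or WBM-MYC, or held only the empty vector, and M2 agarose was used to precipitate the tag. Cells that were not transduced gave the WDR5 precipitates, made with an antibody to WDR5, and the rabbit IgG controls. Each of the 5 groups had 3 libraries from independent biological replicates. All tagged MYC was therefore exogenous, and WDR5 was mapped in cells without it. Only 1 list was deposited per group examined, so replicate spread cannot be shown and read depth is unknown. Intervals below are exact 95% binomial intervals with peaks as the units and cover counting error only.

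MYC is a transcription factor that pairs with MAX and binds mainly at promoters that are already open, where it raises transcription of genes for growth, ribosome production and metabolism. WDR5 is a scaffold subunit of the SET1 and MLL histone H3 lysine methyltransferase complexes, which act at active promoters, and it also contacts MYC directly. A mutant of MYC that cannot make this contact separates binding that depends on WDR5 from binding that does not. Active promoters are unevenly spread along chromosomes, so both proteins are found in gene-rich stretches. Genes such as TSC2 and CREBBP, then MAZ, ALDOA (a glycolytic enzyme), SRCAP (a chromatin remodeller) and SETD1A (the catalytic subunit of a SET1 complex), follow in this order along the short arm in the GRCh38 RefSeq gene table. That table has another build than the peaks, so peaks were not linked to genes.

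The blocks had been drawn on their MYC and WDR5 peaks, so their counts and ratios are descriptions and were not tested. The distal block held 33 WT-MYC, 7 WBM-MYC and 276 WDR5 peaks. The dense block, 2.4 Mb long, held 25 WT-MYC, 17 WBM-MYC and 51 WDR5 peaks. In the sparse block, 27 Mb long, there were 1 WT-MYC, 1 WBM-MYC and 88 WDR5 peaks. The long-arm block had 26 WT-MYC, 2 WBM-MYC and 239 WDR5 peaks. Per Mb, all 3 lists were lower in the sparse block than in the dense block. WDR5 fell from 21.2 to 3.26 peaks per Mb and WT-MYC from 10.4 to 0.037. WDR5 peaks thus remained present in the sparse block, though fewer, where each MYC list had 1 peak.

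**Figure D1:**
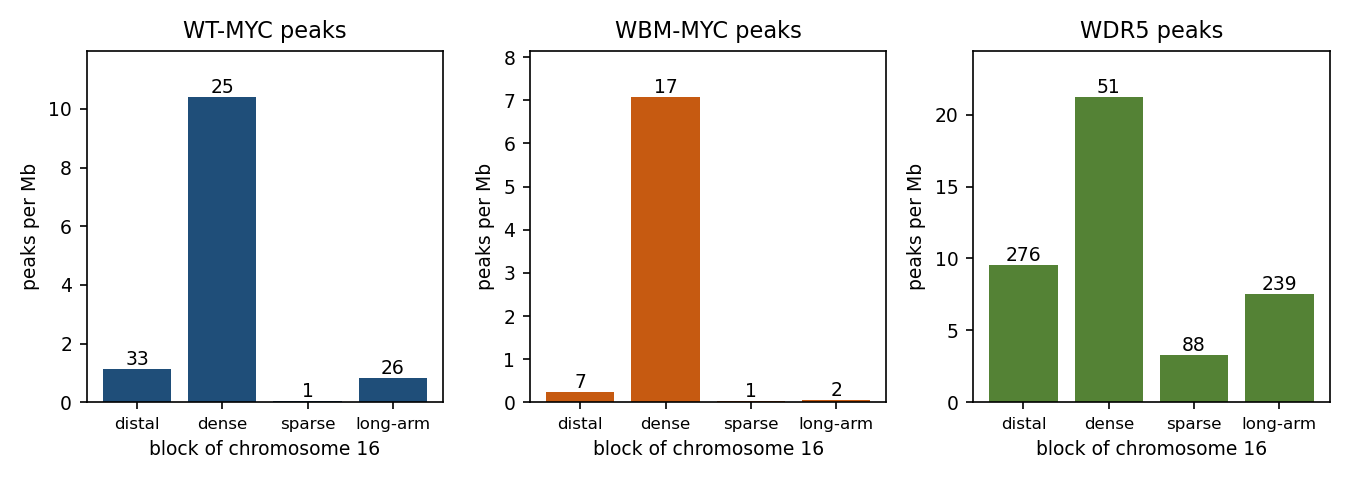
Peaks per Mb (vertical axes, each panel with its own scale) of WT-MYC, WBM-MYC and WDR5 in the distal, dense, sparse and long-arm blocks of chromosome 16, with the number of peaks above each bar. The dense block is highest in all 3 lists, at 10.4, 7.08 and 21.2 peaks per Mb, and the sparse block lowest. The densities of the sparse block divide by its full 27 Mb, of which 14.8 Mb around the centromere held no peak of any list.

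Per 100 WDR5 peaks there were 49.0 WT-MYC peaks in the dense block, 11.96 in the distal block, 10.9 in the long-arm block and 1.14 in the sparse block, against 14.8 on the other chromosomes. The value of the sparse block rests on 1 WT-MYC peak, and it became 6.25 or 3.49 with the borders 0.5 Mb lower or higher and 3.03 in the leading 50% of each list in file order. For WBM-MYC the corresponding values were 33.3, 2.54, 0.837 and 1.14, against 4.01 elsewhere. The dense block carried 29.4% of the WT-MYC, 63.0% of the WBM-MYC and 7.80% of the WDR5 peaks of the chromosome. Relative to WT-MYC, WBM-MYC was plentiful there, with 68 WBM-MYC per 100 WT-MYC peaks, and scarce in the long-arm block, with 7.69, against 27.2 on the other chromosomes. With the dense block aside, 10 WBM-MYC peaks were left on the chromosome.

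Fixed windows of 5 Mb place the blocks beside the rest of the genome. Among the 346 windows with at least 20 WDR5 peaks, the median was 13.1 WT-MYC peaks per 100 WDR5 peaks (interquartile range 7.72 to 19.2). The window from 30 to 35 Mb of chromosome 16, with 24 WT-MYC, 17 WBM-MYC and 52 WDR5 peaks, ranked 4 by the WT-MYC ratio, at 46.2. By the WBM-MYC ratio it ranked 2, at 32.7 against a median of 2.86. Among the 491 windows with at least 10 WDR5 peaks it ranked 7 by the WT-MYC ratio. Of the 14 windows of chromosome 16, 3 held no WT-MYC peak, against 4.05% of all windows (14 of 346). With at least 10 WDR5 peaks it was 3 of 15, against 10.4% of all windows. With windows of 2 Mb it was 1 of 12, against 4.65%. The 3 windows of 5 Mb began at 45, 50 and 75 Mb, so the last lay in the long-arm block and the others in the sparse block. The other 10 windows of 5 Mb, apart from the one at 30 Mb, ran from 3.85 to 16.7 per 100. None was above the interquartile range. Those from 10, 15, 55 and 80 Mb, at 4, 3.85, 7.69 and 7.69, fell below it.

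**Figure D2:**
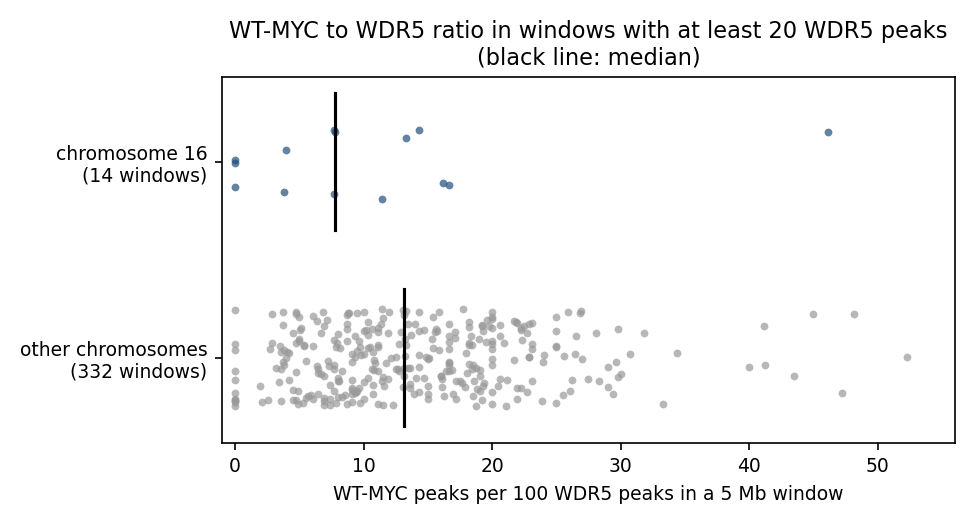
WT-MYC peaks per 100 WDR5 peaks (horizontal axis) in 5 Mb windows with at least 20 WDR5 peaks, for 14 windows of chromosome 16 and 332 of other chromosomes, each point 1 window, spread vertically only for legibility, and the black line the median. A single window of chromosome 16 stands at 46.2, and 3 stand at 0.

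The dense block was narrower in its MYC peaks than in its borders. Its WT-MYC peaks ran from 29911192 to 31044911, a span of 1.13 Mb, which also held all 17 WBM-MYC peaks and 37 of the 51 WDR5 peaks. Before this span lay 4 WDR5 peaks and after it 10, none of them with MYC. The bin from 30 to 31 Mb alone had 22 WT-MYC, 16 WBM-MYC and 31 WDR5 peaks. At the lower border the neighbouring WT-MYC peaks were at 28985794 to 28986289, 14.2 kb before it, and at 29911192 to 29911687, 911 kb after it. At the upper border they were at 31044416 to 31044911, 356 kb before it, and at 31470394 to 31470889, 70.4 kb after it. The last of these is the single WT-MYC peak of the sparse block, which therefore lies close to the dense block and far from the other end of its own.

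In file order the first WT-MYC peaks of the dense block were at 30418385 to 30418880, 30786553 to 30787048, 30006814 to 30007309, 30886437 to 30886932 and 30816686 to 30817181. They stood at lines 78, 124, 145, 183 and 197 of the 2527, and no source used here says how the lists are ordered. The peaks at 30418385, 30886437 and 30816686 overlapped both WBM-MYC and WDR5, that at 30786553 only WBM-MYC, and that at 30006814 neither. The same 3 sites with both partners each carried another WT-MYC peak shifted by 199 to 217 bp, so the 25 peaks of the block form 22 separate regions. The first WBM-MYC peaks, at lines 91, 92, 114, 191 and 225 of 690, were at 30816681 to 30817136, 30886373 to 30886828, 30968991 to 30969446, 30418424 to 30418879 and 29911205 to 29911660. All 5 lay on WT-MYC peaks. The WDR5 peaks earliest in file order, at 30886048 to 30887037, 30064084 to 30064591 and 31191276 to 31191753 (lines 131, 137 and 216 of 17171), had WT-MYC and WBM-MYC, WT-MYC alone and no MYC, respectively. The widest, of 1213, 990 and 778 bp, started at 30709299, 30886048 and 30905091, and each overlapped WT-MYC. The WBM-MYC peaks at 30968991 and 29911205 had no WDR5 peak, the nearest being 55.0 and 25.7 kb away.

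Much of the MYC in the dense block lay off the called WDR5 peaks. WDR5 overlapped 14 of its 25 WT-MYC peaks (56%, 34.9 to 75.6%), against 82.9% of WT-MYC peaks over all chromosomes, 26 of 33 in the distal block (78.8%, 61.1 to 91.0%) and 22 of 26 in the long-arm block (84.6%, 65.1 to 95.6%). For WBM-MYC it was 8 of 17 in the dense block (47.1%, 23.0 to 72.2%) and 5 of 7 in the distal block (71.4%, 29.0 to 96.3%), against 75.5% over all chromosomes. After overlapping peaks of a list were merged, WDR5 overlapped 50% of the 22 WT-MYC regions of the dense block. The block was picked for many MYC peaks per WDR5 peak, so these shares are descriptions with no test.

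The WT-MYC peaks of the dense block that had no WDR5 peak did not sit just beside one. All 11 were over 10 kb from the nearest WDR5 peak, at 10.1 to 55.0 kb with a median of 25.6 kb. On other chromosomes 67.0% of the 409 WT-MYC peaks without WDR5 were over 10 kb away (median 29.3 kb). In the distal block it was 4 of 7: there the peak at 28857000 to 28857495 abutted a WDR5 peak without sharing a base, and those at 4321136 and 9186068 missed one by 23 and 302 bp. The 11 peaks of the dense block fell in 8 gaps between WDR5 peaks, 22.4 to 130 kb long. The longest, from 30913990 to 31044357, held 3 WT-MYC peaks, starting at 30933039, 30968977 and 30996583, and 1 WBM-MYC peak on the middle one. A longer gap of 271 kb, from 30134960 to 30406444, held no WT-MYC peak but 2 WBM-MYC peaks, starting at 30366731 and 30388392.

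**Figure D3:**
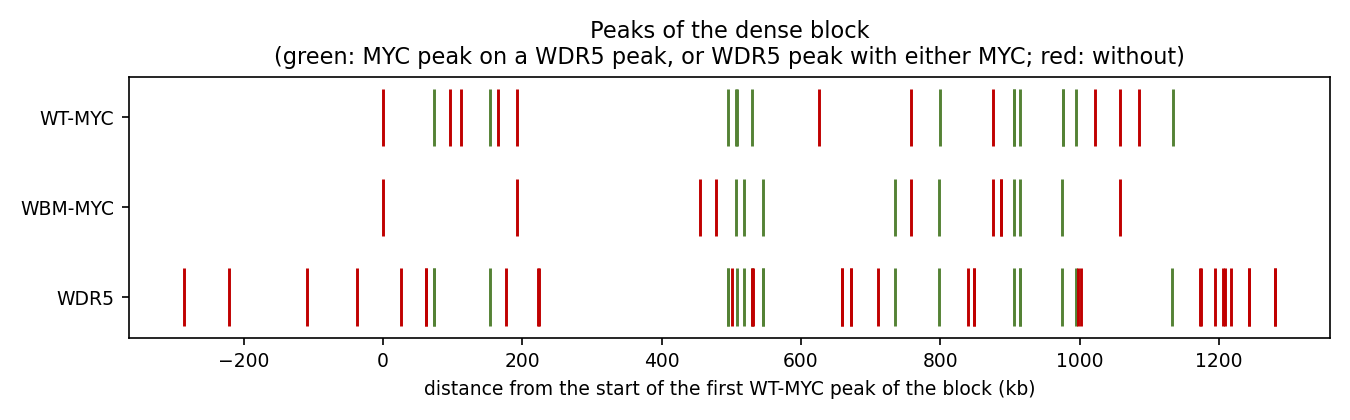
Positions of WT-MYC, WBM-MYC and WDR5 peaks in the dense block (rows), as distance in kb from the start of its first WT-MYC peak (horizontal axis). Green marks MYC peaks on a WDR5 peak and WDR5 peaks with either MYC, red marks the rest, and the 11 red WT-MYC peaks lie in gaps between WDR5 peaks.

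Both MYC forms met at many of these sites. WBM-MYC overlapped 12 of 25 WT-MYC peaks in the dense block (48%, 27.8 to 68.7%), 4 of 33 in the distal block (12.1%, 3.40 to 28.2%) and 2 of 26 in the long-arm block (7.69%, 0.946 to 25.1%), against 20.9% over all chromosomes. After overlapping peaks of a list were merged, the shares were 40.9% of 22, 12.1% of 33 and 8% of 25. These shares were not tested either, since the block was picked on its MYC peaks. By partner, the 25 WT-MYC peaks were 7 with WBM-MYC and WDR5, 5 with WBM-MYC only, 7 with WDR5 only and 6 with neither. The 7 with both partners include 3 sites that hold 2 WT-MYC peaks each. Peaks with WDR5 only were 28% of the dense block, 69.7% of the distal block (23 of 33), 80.8% of the long-arm block (21 of 26) and 66.6% of the other chromosomes, values that were not tested.

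**Figure D4:**
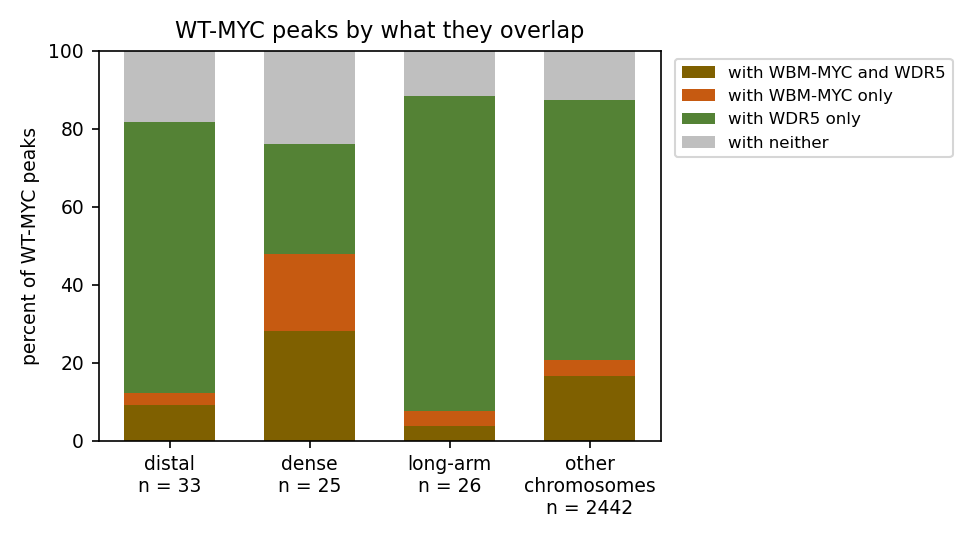
WT-MYC peaks (vertical axis, percent) split by whether they overlap WBM-MYC and WDR5, in the distal, dense and long-arm blocks and on the other chromosomes, with the number of peaks under each bar; the sparse block is left out for its single peak. Peaks with WBM-MYC only make up 20% of the dense block and 4.14% of the other chromosomes.

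Seen from the mutant, 9 of the 17 WBM-MYC peaks in the dense block lay on a WT-MYC peak (52.9%, 27.8 to 77.0%), against 72.0% over all chromosomes, and 4 of 7 did in the distal block. Where they overlapped, the 9 pairs were centred 1 to 84 bp apart, with a median of 9 bp. The other 8 WBM-MYC peaks of the dense block were 228 bp to 39.0 kb from the nearest WT-MYC peak, and only the one at 30709415 to 30709870 was within 10 kb. Of these 8, 4 lay on WDR5 peaks, starting at 30429212, 30456705, 30645728 and 30709415. The other 4, starting at 30366731, 30388392, 30797689 and 30798406, overlapped neither list.

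From the side of WDR5, 14 of 51 peaks in the dense block overlapped WT-MYC (27.5%, 15.9 to 41.7%), against 13.6% over all chromosomes, 28 of 276 in the distal block (10.1%, 6.85 to 14.3%) and 22 of 239 in the long-arm block (9.21%, 5.86 to 13.6%). The share with WBM-MYC was 10 of 51 (19.6%, 9.82 to 33.1%) in the dense block, against 3.40% over all chromosomes, and 1 of 239 in the long-arm block (0.418%, 0.0106 to 2.31%). The 10 WDR5 peaks of the dense block met 8 WBM-MYC peaks, so they are not 10 separate sites. Merging overlapping peaks turns the 51 WDR5 peaks of that block into 41 regions. In the sparse block 2 of 88 WDR5 peaks met each MYC form. Both start at 31470308, overlap each other and meet the same MYC peaks, so they amount to 1 site. From there to 58426354, over 26.96 Mb, neither MYC list had a further peak, while 83 WDR5 peaks lay wholly within. Among the 2401 gaps between successive WT-MYC peaks of all chromosomes, this gap held the second most WDR5 peaks, after one on chromosome 13 with 86.

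The stretch had 3 parts. Up to 31885721 there were 5 WDR5 peaks without MYC. From 31885721 to 46655009, over 14.8 Mb around the centromere, no list had a peak. From 46 to 58.4 Mb there were 78 WDR5 peaks with no MYC peak of either form. The first WDR5 peaks of the sparse block in file order were at 31470308 to 31470870, 57496415 to 57496851 and 57481049 to 57481675, at lines 614, 1072 and 1529 of 17171. The latter pair had its nearest WT-MYC peak 930 and 945 kb away, so WDR5 peaks early in the list were present without MYC. The widest were at 31470308 to 31471135 (828 bp), 47177546 to 47178250 (705 bp) and 47007341 to 47008037 (697 bp). MYC resumed just beyond the border, with WT-MYC at 58426354 to 58426849, 58549088 to 58549583 and 58767977 to 58768472, all on WDR5 peaks. Then came 7.51 Mb without a WDR5 peak, up to 66304006.

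In the distal block the peaks of all lists gathered towards the end of the chromosome. Its first 5 Mb held 21 of the 33 WT-MYC, 6 of the 7 WBM-MYC and 158 of the 276 WDR5 peaks, a WT-MYC ratio of 13.3 per 100, against 10.2 from 5 to 29 Mb, a difference that was not tested. In file order its WT-MYC peaks began with 231219 to 231714, 22308419 to 22308914, 4588674 to 4589169, 3550661 to 3551156 and 2014522 to 2015017, at lines 210 to 315, and all 5 lay on WDR5 peaks. Only the one at 3550661 had WBM-MYC. Its first WBM-MYC peak, at 14580649 to 14581104 (line 43 of 690), stood alone, 143 kb from both the nearest WT-MYC and the nearest WDR5 peak. The next, at 127965 to 128420, lay on a WT-MYC peak 23.8 kb from WDR5. Those at 279090, 3550695 and 1470602 had WDR5 peaks, the last 2 also WT-MYC. The leading WDR5 peaks of the block, at 18801041 to 18802042, 2317556 to 2318701 and 2014112 to 2015324, each overlapped WT-MYC and not WBM-MYC. The last pair were also the widest of the block, at 1146 and 1213 bp, followed by one of 1050 bp at 25268766 to 25269815 with no MYC.

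In the long-arm block MYC was spread thinly and mostly on WDR5. The first WT-MYC peaks in file order were at 71501624 to 71502119, 89627054 to 89627549, 58549088 to 58549583, 70414981 to 70415476 and 85449883 to 85450378, at lines 316 to 640. The one at 71501624 carried the earlier of the block's 2 WBM-MYC peaks and lay 5.27 kb from WDR5. The other 4 were on WDR5 and had no WBM-MYC. The remaining WBM-MYC peak, at 89992646 to 89993101, lay on both WT-MYC and WDR5. The first WDR5 peak in file order, at 89626596 to 89627973 (line 20 of 17171), was also the widest of the chromosome, at 1378 bp. It held a pair of WT-MYC peaks 200 bp apart. The next WDR5 peaks were at 70557527 to 70558345, without MYC, and at 74330364 to 74330948, with WT-MYC. A stretch from 74330965 to 82203750 held 39 whole WDR5 peaks and no peak of either MYC form. The next widest WDR5 peaks, of 841 and 825 bp, were at 87350565 to 87351405, without MYC, and at 82203557 to 82204381, with WT-MYC.

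WDR5 peaks of the blocks also differed in 2 features that were not themselves used to draw the blocks, their place in the deposited list and their width. The 2 are not independent. On other chromosomes the commonest width, 624 bp, was held by 20.4% of WDR5 peaks but by 0.705% in the leading 50% of the list. List place is also tied to MYC, on which the blocks were drawn. On other chromosomes 20.8% of WDR5 peaks in the leading 50% had WT-MYC, against 6.66% of later ones. The share in the leading 50% of the list was 60.1% in the distal block (54.1 to 66.0%), 66.7% in the dense block (52.1 to 79.2%), 37.5% in the sparse block (27.4 to 48.5%) and 51.0% in the long-arm block (44.5 to 57.5%), against 49.8% on other chromosomes. Only the distal block passed the test against the other chromosomes, 10.3 percentage points higher (two-sided Fisher's exact test over 35 comparisons, adjusted p = 0.0233). The dense and the sparse block, 16.8 points higher and 12.3 points lower, did not pass (Fisher's exact test, adjusted p = 0.0996 each). Between blocks, the sparse block was below the distal block by 22.6 points (Fisher's exact test over 12 comparisons, adjusted p = 0.00268) and below the dense block by 29.2 points (adjusted p = 0.00850). The shares were also computed without the WDR5 peaks that had MYC, an alternative added after the data were seen. This left 246 of 276 WDR5 peaks in the distal block, 33 of 51 in the dense block and 86 of 88 in the sparse block. What part the peaks with MYC had in these differences was not tested. Among WDR5 peaks without either MYC, the distal and sparse blocks differed by 20.9 points (Fisher's exact test, adjusted p = 0.0127). The dense and sparse blocks did not pass among those peaks (23.4 points, Fisher's exact test, adjusted p = 0.0985), nor among all WDR5 peaks with the borders 0.5 Mb lower (17.7 points, adjusted p = 0.127).

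The commonest WDR5 width was 624 bp. It was held by 13.8% of WDR5 peaks in the distal block (9.93 to 18.4%), 11.8% in the dense block (4.44 to 23.9%), 27.3% in the sparse block (18.3 to 37.8%) and 18.8% in the long-arm block (14.1 to 24.4%), against 20.4% on other chromosomes. No block passed the test against other chromosomes (two-sided Fisher's exact test, lowest adjusted p = 0.0561, for the distal block). The distal block did pass, with a lower share, after overlapping peaks were merged (adjusted p = 0.0360, Fisher's exact test). It also passed among WDR5 peaks without either MYC (adjusted p = 0.0239, Fisher's exact test) and when the adjustment covered only the 15 tests reported here (adjusted p = 0.0481), both added after the data were seen. Between blocks, only the distal and the sparse block differed, by 13.5 points (Fisher's exact adjusted p = 0.0212). That difference did not pass after overlapping WDR5 peaks were merged (10.2 points, Fisher's exact test, adjusted p = 0.0755). Nor did it pass among WDR5 peaks without either MYC (12.9 points, Fisher's exact test, adjusted p = 0.0597). In the leading 50% of each list it was 2.43 points (Fisher's exact test, adjusted p = 1). That setting cannot decide, as few 624 bp peaks remain. They were 0.602% of WDR5 peaks in the distal block, 3.03% in the sparse block and 0.705% on other chromosomes. Median WDR5 widths were 405, 455, 404.5 and 396 bp in the distal, dense, sparse and long-arm blocks, against 420 bp elsewhere.

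**Figure D5:**
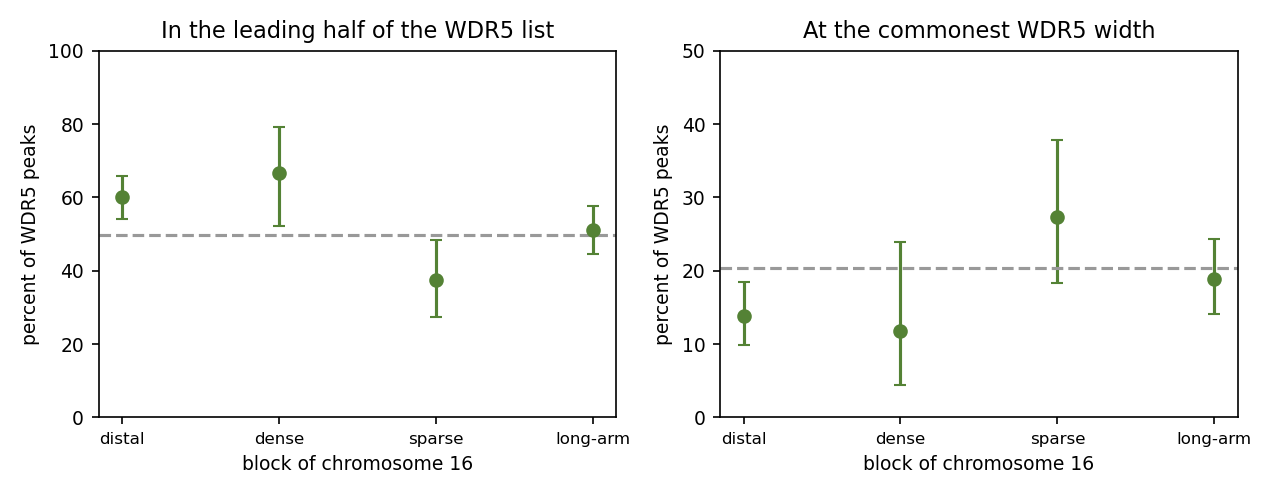
Percent of WDR5 peaks (vertical axes) in the leading 50% of the WDR5 list and at 624 bp in the distal, dense, sparse and long-arm blocks; bars are exact 95% binomial intervals and the dashed line is the value on other chromosomes. The sparse block is lowest in the first panel, at 37.5%, and highest in the second, at 27.3%.

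WDR5 peaks early in the list carry MYC more often, so the overlap was also set against list position. With the WDR5 list cut into 10 equal parts, the shares of each part on the other chromosomes, applied to each block, gave 9.06 WDR5 peaks with WT-MYC in the dense block, where 14 were observed, and 9.90 in the sparse block, where 2 were. The distal block had 28 against 41.6 and the long-arm block 22 against 30.5. For WBM-MYC the dense block had 10 against 2.55, the distal block 5 against 10.7 and the long-arm block 1 against 7.11. The sparse block had 2 WDR5 peaks with WBM-MYC against 2.24. These 2 overlap each other and meet the same WBM-MYC peak. With so few peaks, the count cannot show whether WBM-MYC fell short there as WT-MYC did. Per 100 WDR5 peaks the sparse block had 1.14 WBM-MYC peaks, against 4.01 on the other chromosomes. These values describe blocks chosen on their MYC peaks and were not tested. In the leading 50% of the WDR5 list, 1 of 33 peaks of the sparse block had WT-MYC (3.03%, 0.0767 to 15.8%), against 10 of 34 in the dense block (29.4%, 15.1 to 47.5%) and 20.8% on other chromosomes.

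WT-MYC peaks stood no earlier in their own list in the dense block than elsewhere: 12 of 25 were in the leading 50% (48%, 27.8 to 68.7%), against 50.2% on other chromosomes (two-sided Fisher's exact test, adjusted p = 1). The distal block had 14 of 33 and the long-arm block 9 of 26, and neither passed (Fisher's exact adjusted p = 0.638 and 0.299). Where WT-MYC and WDR5 overlapped, centres were a median of 133 bp apart in the dense block (14 peaks), 54.2 bp in the distal block (26 peaks) and 34.5 bp in the long-arm block (22 peaks), against 72 bp on other chromosomes. This difference was not tested. The 14 peaks of the dense block include 3 pairs of WT-MYC peaks shifted by 199 to 217 bp. The long-arm block has 1 such pair and the distal block none. Of the 85 WT-MYC peaks of the chromosome 84 were 496 bp wide and all 27 WBM-MYC peaks 456 bp, so MYC widths carry no difference between blocks. The exception, at 84028540 to 84028691, was 152 bp wide and overlapped neither partner.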

How the data were processed

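The authors deposited 1 peak list each for WT-MYC, WBM-MYC and WDR5, with chromosome, start and end in bp and no score. The submitters' processing notes name hg19 as the build, with Bowtie 0.12.7 and CASAVA 1.8.2. How peaks were called, with which thresholds and controls, and whether replicates were pooled is not given in the sources used here. Groups came from the labels. Starts are printed counted from 1. Peaks shared at least 1 bp to count as overlapping. Shares were compared with Fisher's exact test (scipy 1.17.1), two-sided, with Benjamini-Hochberg adjustment over 35 tests against other chromosomes and 12 between blocks, and a difference passed at an adjusted p of 0.05. The 20 tests of overlap shares in the former family were computed but are not used, since the blocks were chosen on MYC and WDR5 density. The members, blocks and lists were chosen with earlier results of these data known. Named peaks are, per block, the first 5 of each MYC list in file order (all where fewer) and the first 3 and widest 3 of WDR5; others were picked with their values in view. The code was tested on simulated data. Peaks near each other are not independent, so p-values can be too small. No hg19 sequence or annotation was used here, so planned gene and promoter descriptions were not made. Alternatives covered the overlap rule, merging, list length, borders and windows.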

Additional observations from a re-analysis of the deposited data

How the results depend on the processing

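No paired analysis was possible because each group has 1 peak list, and for the same reason no replicate could be left out. Of 317 values under the alternatives, 290 kept their direction and their side of the threshold or stayed within their range. Some of these could show no change. Assigning blocks by peak centre altered no value, and shifted borders cannot alter shares of the whole chromosome. The total therefore overstates how far the values were tried. Direction turned in 5, none of which passed a test before or after. These were the distal against the dense block in 624 bp peaks (-0.111 points without MYC, -0.986 with the borders 0.5 Mb higher) and in the leading 50% of the WDR5 list (0.338 with the borders 0.5 Mb lower). The others were 624 bp peaks against other chromosomes in the leading 50% of each list, for the long-arm block (0.935) and chromosome 16 (0.422). Few such peaks remain there, at 1.64% and 1.13% of WDR5 peaks, against 0.705% on other chromosomes. With the borders 0.5 Mb lower, the sparse block had 6.25 WT-MYC and 2.08 WBM-MYC peaks per 100 WDR5 peaks. With the borders 0.5 Mb higher it had 3.49 and 0, and in the leading 50% of each list 3.03 and 0. The leading 50% also gave WT-MYC at 6.02% of WDR5 peaks in the distal and 4.10% in the long-arm block, and WDR5 at 44.4% of WT-MYC peaks in the long-arm block and 58.3% over the chromosome. Fewer peaks remain in each list there. The distal block differed from other chromosomes in 624 bp peaks by -6.88 points after merging (Fisher's exact test, adjusted p = 0.0360) and by -7.77 points (adjusted p = 0.0239) among WDR5 peaks without MYC. Adjusted over 15 tests, its unaltered difference of -6.63 points also passed. Without MYC, chromosome 16 as a whole exceeded the others in the leading 50% by 6.45 points (Fisher's exact test, adjusted p = 0.0223). With the borders 0.5 Mb higher, the sparse block was below the long-arm block there (-15.5 points, Fisher's exact test, adjusted p = 0.0488). Against the dense block it lost the call at 17.7 points with the borders 0.5 Mb lower and at 23.4 points without MYC. The distal against the sparse block in 624 bp peaks lost it at -12.9 points without MYC and -10.2 after merging. It also lost it at -2.43 points in the leading 50%, where too few 624 bp peaks remain to decide. With at least 10 WDR5 peaks, 10.4% of 491 windows had no WT-MYC peak and the window at 30 Mb ranked 7. The cause of these changes was not tested. The share of the leading 50% could not be computed within the leading 50% alone. Read depth is unknown, so sites under the calling threshold cannot be told from absent ones.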
